A study of Mus musculus with 12 samples.

Results

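The transcripts described here encode the contractile and anchoring proteins of the cardiac sarcomere, in mouse hearts labelled as PDE10A wild type or knockout that received doxorubicin or vehicle. The list holds 36 genes taken by symbol, with the myosin heavy chains left out, of 55453 symbols counted. All 36 members passed the filter on low counts, as did 14757 genes in all. By compartment, 6 belong to the thick filament and titin, 11 to the thin filament, 4 to the M-band, 12 to the Z-disc, and 3 are desmin and the Xin proteins.

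RNA came from whole heart tissue of C57BL/6J mice, 3 mice and 1 library each in 4 groups. Wild-type (WT) mice received vehicle (mice 1, 2 and 3) or doxorubicin (DOX; mice 21, 22 and 24). Mice labelled as PDE10A knockout (KO) received vehicle (mice veh_3393, veh_3394 and veh_3395) or DOX (mice 18, 19 and 20). DOX, an anthracycline used against cancer that is toxic to the heart, was given into the peritoneum as 1 bolus of 15 mg/kg with a course of 7 days. The protocol text, shared by all samples, also describes injections of the PDE10A inhibitor TP-10 or of its DMSO and β-cyclodextrin vehicle. No library used here is labelled with the inhibitor. Mice were male or female, with neither sex nor age given per mouse. PDE10A is an enzyme that breaks down cAMP and cGMP. How the knockout allele was made, and in which cells it acts, is not given in the sources used here.

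In the sarcomere, myosin heads of the thick filament pull on actin of the thin filament, and troponin and tropomyosin open the actin sites when calcium rises. Titin spans from the Z-disc, where α-actinin crosslinks actin, to the M-band, where myomesins tie the thick filaments together. Desmin and the Xin proteins link the outer myofibrils to neighbouring Z-discs and to the cell junctions. Anthracycline injury of cardiomyocytes is known for disarray and loss of myofibrils.

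The libraries held 23846398 to 32921876 counts each. The mitochondrial share of counts was lowest in WT vehicle mouse 2, at 19.54%, and lay between 24.39% and 33.62% in the other 11 libraries. Pde10a was at 3.38, 1.00 and 1.86 CPM (counts scaled to library size with the trimmed mean of M values) in WT vehicle, and at 2.7, 2.08 and 1.79 in WT DOX. It was higher in the libraries labelled KO, at 9.31, 11.9 and 9.13 CPM under vehicle and 8.27, 8.49 and 9.09 under DOX. A higher level goes against the label. Which exons the allele removes is not given, so these counts do not check the deletion, and every genotype difference here is one between libraries labelled KO and WT. Cardiomyocyte markers that are not members summed to 53130 to 57800 CPM in WT vehicle and to 43550 to 52650 in WT DOX, and to 53460 to 61740 in the libraries labelled KO, with none at 0. By gene, 4 of these 8 markers were called for DOX in WT: Ckm, Mb and Cox6a2 fell and Slc8a1 rose. Endothelial markers, 5 genes, summed to 689 to 894 CPM in WT vehicle, 505 to 601 in WT DOX and 520 to 682 in the libraries labelled KO, and 3 of the 5, Kdr, Tie1 and Egfl7, fell for DOX in WT. Kdr and Egfl7 were also called lower in KO than in WT under vehicle. In that contrast 3 of the 8 cardiomyocyte markers were called too, 2 higher and 1 lower, against 2.88% of all genes. Of the fibroblast, macrophage and smooth muscle markers, 0 of 5, 1 of 4 (higher) and 1 of 6 (lower) were called for DOX in WT. The share of all genes called for DOX in WT was 18.6%. The part of cell makeup in the members' values was not tested. Skeletal muscle markers were near 0 throughout, at 3.08 to 4.84 CPM in sum over 11 genes, of which 1 to 5 were at 0 in each library. Atrial markers stood apart in KO mouse veh_3394 and KO DOX mouse 18, at 2338 and 1754 CPM in sum over 7 genes against 80.8 to 277 in the other libraries. In whole tissue, fewer cells of a type and less RNA per cell cannot be told apart.

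**Figure D1:**
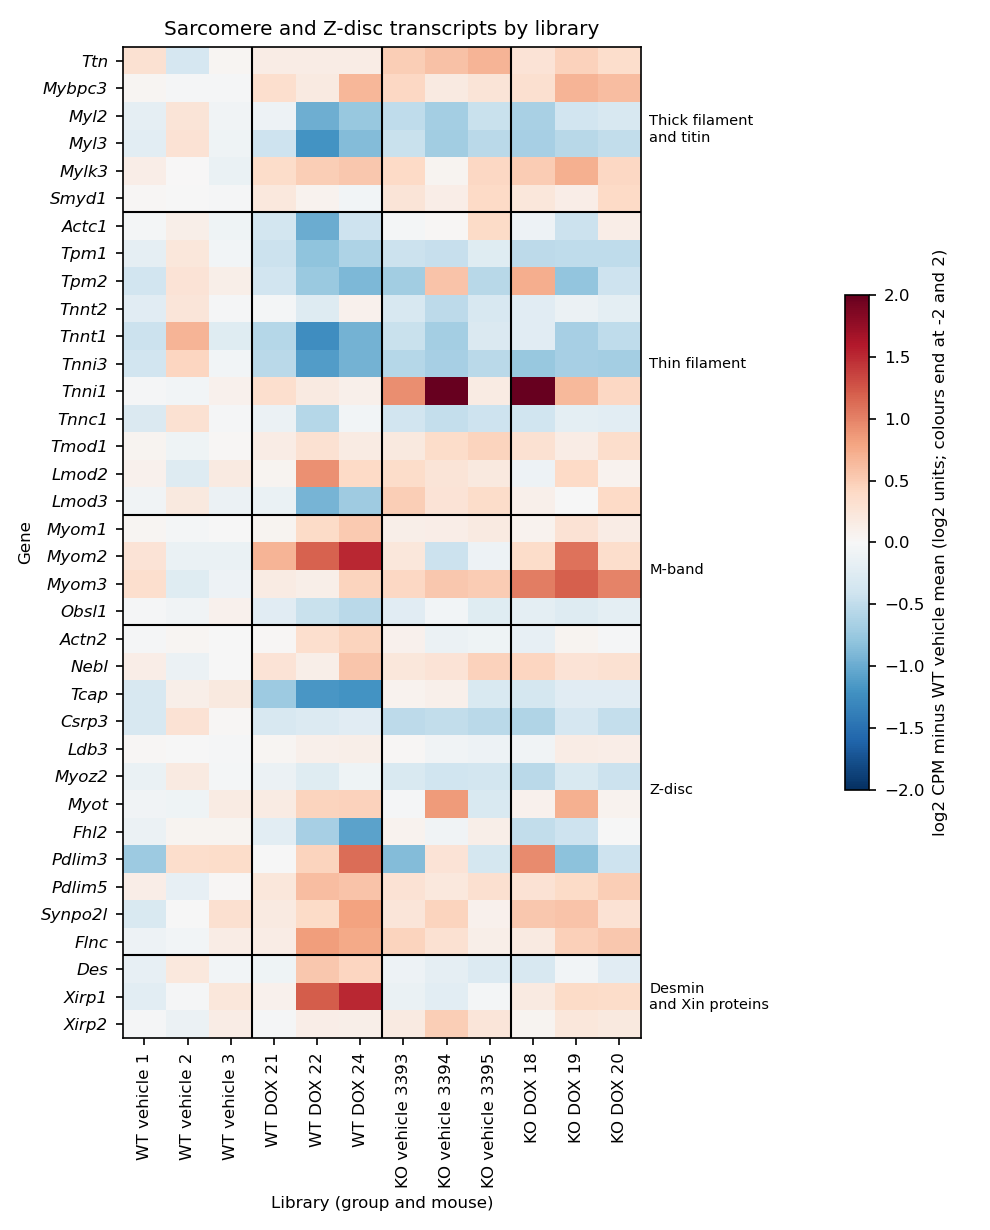
Each cell gives the log2 CPM of 1 member (rows, grouped by compartment) in 1 library (columns, by group and mouse) minus the mean of the 3 WT vehicle libraries. Tcap, Tnni3 and Myl3 are lower and Myom2 is higher in all 3 WT DOX libraries than in any WT vehicle library, and Tnni1 stands out in KO mouse veh_3394 and KO DOX mouse 18.

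Compared per kilobase of exon, the members covered a wide range of levels. In WT vehicle, the ventricular regulatory light chain Myl2 led with 6869 ± 1108 CPM per kb (SD, n = 3), and cardiac actin Actc1 followed with 5533 ± 426. Next came the cardiac troponin I gene Tnni3 at 3301 ± 954, the ventricular essential light chain Myl3 at 3204 ± 603 and the cardiac troponin C gene Tnnc1 at 2590 ± 536 CPM per kb. The means of Tnni3 and Myl3 differed by less than either SD, and the mean of Tnnc1 lay more than 1 SD below that of Myl3. Titin, whose exons cover 116.825 kb, was at 23.8 ± 5.14 CPM per kb. The lowest members were the third myomesin gene Myom3 at 0.429 ± 0.0966 and the slow skeletal troponin I gene Tnni1 at 0.0509 ± 0.00376 CPM per kb, the latter resting on 4 to 43 reads per library. Together the 36 members took 8.14 ± 1.47% of all counts in WT vehicle and 6.82 ± 0.65% in WT DOX. They took 6.86 ± 0.17% in KO vehicle and 7.01 ± 0.14% in KO DOX. The WT vehicle libraries ranged from 6.93% to 9.77%, with the highest share in mouse 2, so the mean of that group was also its least certain.

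In WT hearts, DOX was followed by lower transcripts of Tcap, Tnni3, Tnnt1, Myl3, Tpm1, Lmod3, Fhl2 and Obsl1 and by higher transcripts of Myom2, Xirp1, Flnc, Pdlim5 and Mylk3. By edgeR's quasi-likelihood test, with p adjusted over all genes by Benjamini-Hochberg and a threshold of 0.05, 13 of 36 members were called (36.1%), 5 higher and 8 lower. Of all genes tested, 18.6% were called, 9.39% higher and 9.2% lower. At an unadjusted p below 0.05 there were 21 members, against 36.1% of all genes. The 3 DOX libraries did not overlap the 3 vehicle libraries for 19 members, 9 of them higher and 10 lower, against 32.6% of all genes (16.8% higher and 15.8% lower). The median log2 fold change of the members was 0.11, and that of all genes was 0 to 2 decimals, so the members moved in both directions rather than as 1 block. The 13 calls came from a fit of all 12 libraries, and a fit of the 2 WT groups alone called 0 of them.

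Among the 6 thick filament and titin members, 1 rose and 1 fell, with a median log2 fold change of 0.11. Myl3 was at 5584, 7939 and 6126 CPM under vehicle and at 4851, 2839 and 3537 under DOX. All 3 DOX libraries lay below all vehicle libraries, and the gene fell by 0.81 on the log2 scale (SE 0.19, adjusted p = 0.0188). Mylk3, the cardiac kinase that phosphorylates the regulatory light chain, was at 563, 513 and 468 CPM under vehicle and at 661, 726 and 749 under DOX. It rose by 0.47 (SE 0.12, adjusted p = 0.0274), again with no overlap. Its substrate Myl2 did not pass (log2 fold change -0.57, SE 0.21, adjusted p = 0.0692). For Myl2, WT DOX mouse 21, at 12403 CPM, lay inside the vehicle range of 11757 to 15842, while mice 22 and 24 lay at 6725 and 7888. The filament's cardiac myosin-binding protein C gene Mybpc3 (0.41, adjusted p = 0.0598), titin (0.13, adjusted p = 0.53) and the muscle methyltransferase gene Smyd1 (0.08, adjusted p = 0.616) also did not pass.

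The thin filament held 4 of the 8 members that fell and none that rose among its 11 members, with a median log2 fold change of -0.56. Tnni3, the inhibitory subunit that holds the filament shut without calcium, was at 5082, 8953 and 6393 CPM under vehicle and at 4551, 3050.3 and 3445 under DOX. It fell by 0.89 (SE 0.19, adjusted p = 0.0168), and the groups did not overlap although the vehicle mice themselves spanned a wide range. Tpm1, the α-tropomyosin gene, was at 10000.1, 13305 and 10903 CPM under vehicle and at 8361, 6462 and 7398 under DOX. It fell by 0.62 (SE 0.14, adjusted p = 0.0172). Lmod3, a leiomodin that nucleates actin filaments, was lower in every DOX library, at 77.0, 44.5 and 51.9 CPM against 80.5, 97.0 and 78.4. It fell by 0.56 (SE 0.18, adjusted p = 0.0493), close to the threshold. Tnnt1, the slow skeletal troponin T gene, is a minor transcript in this tissue and fell by 0.99 (SE 0.27, adjusted p = 0.0286). The other leiomodin, Lmod2, had the highest value of the compartment at 0.48 and did not pass (SE 0.20, adjusted p = 0.103). Actc1 (-0.57, adjusted p = 0.0561), the main cardiac troponin T gene Tnnt2 (-0.08, adjusted p = 0.701), Tnnc1 (-0.25, adjusted p = 0.278) and the pointed-end cap gene Tmod1 (0.21, adjusted p = 0.155) were not called. So within 1 troponin complex the I subunit was called and the T and C subunits of the heart were not, a difference between genes that was not itself tested.

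At the M-band, 1 of 4 members rose and 1 fell. Myom2, which encodes the M-protein, had the largest rise of all members, from 1264, 951 and 959 CPM under vehicle to 1678, 2366 and 2987 under DOX. No DOX library overlapped a vehicle library, and the log2 fold change was 1.15 (SE 0.25, adjusted p = 0.0174). Its relative Myom1 was at 1358, 1282 and 1315 CPM under vehicle and 1371, 1718 and 1893 under DOX and did not pass (0.33, SE 0.12, adjusted p = 0.0679). Obsl1, an obscurin-like adaptor, lay at 84.6, 81.8 and 91.7 CPM and then at 73.1, 63.2 and 59.0. It fell by 0.40 (SE 0.10, adjusted p = 0.0222). Myom3, at 3.25, 2.14 and 2.38 CPM under vehicle and 2.88, 2.77 and 3.48 under DOX, overlapped and did not pass (0.24, SE 0.18, adjusted p = 0.356).

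Of the 12 Z-disc members, 2 rose and 2 fell, with a median of 0.30. Tcap, whose product telethonin caps the ends of titin in the Z-disc, was at 1229.8, 1656 and 1762 CPM under vehicle and at 924, 682 and 666 under DOX. That is 2.04-fold lower, a fall of 1.03 on the log2 scale (SE 0.17, adjusted p = 0.0093), the smallest adjusted p of the 36 members. Fhl2, a LIM protein of the Z-disc and I-band, was at 1391, 1568 and 1562 CPM and under DOX at 1299, 947 and 716. It fell by 0.61 (SE 0.19, adjusted p = 0.0442), with mouse 21 closest to the vehicle mice. Flnc, the muscle filamin that crosslinks actin, rose by 0.61 (SE 0.17, adjusted p = 0.032), but mouse 21 at 276 CPM lay inside the vehicle range of 233 to 277, and only mice 22 and 24, at 442 and 422, lay above it. Pdlim5, a PDZ and LIM protein that binds α-actinin, was at 547, 447 and 507 CPM and under DOX at 585, 768 and 739, a rise of 0.48 (SE 0.12, adjusted p = 0.0239) without overlap. The core crosslinker gene Actn2 (0.28, adjusted p = 0.116), nebulette (Nebl, 0.32, adjusted p = 0.0862), the muscle LIM protein gene Csrp3 (-0.29, adjusted p = 0.142) and the cypher gene Ldb3 (0.09, adjusted p = 0.521) did not pass. Neither did Myoz2 (-0.15, adjusted p = 0.324), Myot (0.36, adjusted p = 0.333), Pdlim3 (0.51, adjusted p = 0.44) or Synpo2l (0.46, adjusted p = 0.0964).

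Among desmin and the Xin proteins, Xirp1 alone was called. This actin-binding protein of the intercalated disc was at 191, 217 and 258 CPM under vehicle and at 234, 511 and 627 under DOX. The log2 fold change was 1.04 (SE 0.26, adjusted p = 0.024), although mouse 21 lay inside the vehicle range, as it did for Flnc. Desmin (Des) was at 0.31 (adjusted p = 0.174) and Xirp2 at 0.07 (adjusted p = 0.659).

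**Figure D2:**
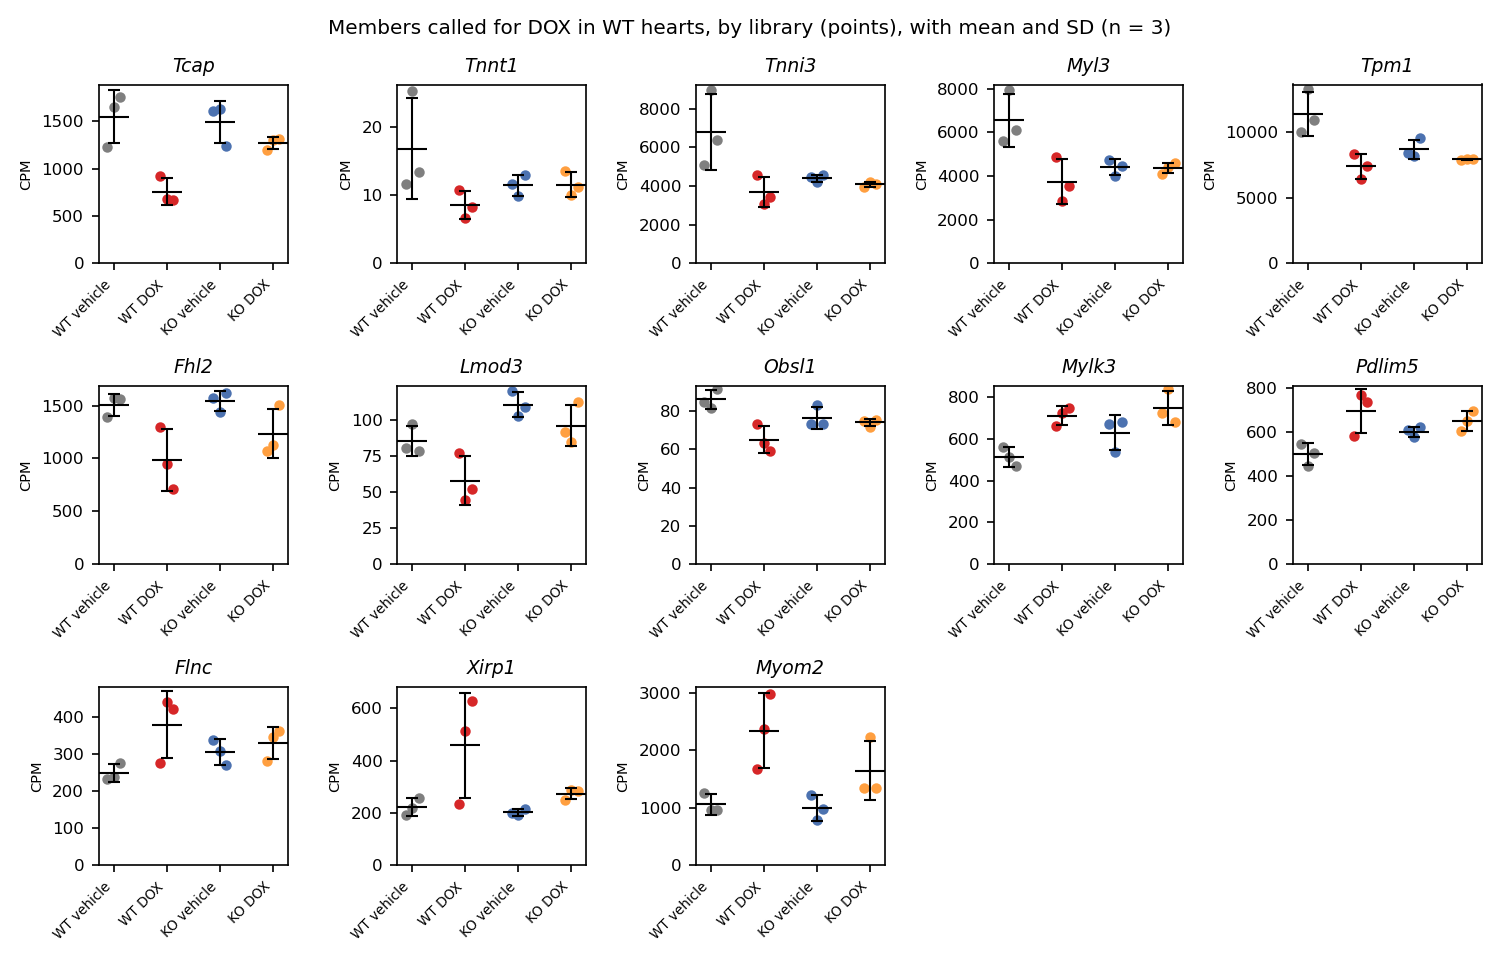
CPM (vertical axes, each from 0) of the 13 members called for DOX in WT hearts, 1 point per library with the mean and SD (n = 3) of the 4 groups. Tcap sits at 666 to 924 CPM in WT DOX and at 1199 or above in the other 9 libraries, while Flnc and Xirp1 have 1 WT DOX library inside the WT vehicle range.

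The calls leaned on single WT libraries. Leaving out 1 library at a time gave 1 to 20 members called. The count was 2 without WT vehicle mouse 2, 5 without WT vehicle mouse 3, 1 without WT DOX mouse 22 and 1 without WT DOX mouse 24, and it rose to 20 without WT DOX mouse 21. Tcap passed in all 12 of these fits, with a log2 fold change between -1.20 and -0.93 and an adjusted p of at most 0.0451. A fit of the 2 WT groups alone called 0 members (adjusted p = 0.0677 for Tcap). The main fit estimates each gene's spread from all 4 groups together, so the WT calls also rest on the KO libraries. For Tnni3, the SD was 28.9% and 21.1% of the mean in WT vehicle and DOX, against 4.15% and 3.27% in KO. For Mylk3 it was lower in WT, at 9.19% and 6.42% against 13.1% and 10.7%. Titles of 8 libraries carry a suffix whose meaning is not given, on 1 of 3 WT vehicle and 2 of 3 WT DOX libraries. It is absent for WT vehicle mice 2 and 3, WT DOX mouse 21 and KO mouse veh_3393. With the suffix as a covariate 7 of the 13 calls held, Tcap among them.

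Fold changes also followed transcript length. Across the 36 members, Spearman's rho between the log2 fold change of DOX in WT and the exon length was 0.521. Over 14654 genes it was 0.352, with a median log2 fold change of -0.255 in the shortest 25% of genes (up to 2588 bases) and 0.196 in the longest 25% (from 6648 bases). Genes share libraries and are not independent replicates, so these values are descriptions. The 8 members that fell had a median exon length of 2.13 kb (0.948 to 8.47) and the 5 that rose one of 8.85 kb (4.28 to 9.40). Tcap is the shortest member. By library, the median of short genes less that of long genes was taken as log2 deviation from the mean of all 12 libraries. It was 0.692 in WT vehicle mouse 2 and 0.277 in mouse 3, and between -0.194 and 0.011 in the other 10. Within WT vehicle, WT DOX and KO vehicle, libraries without the title suffix had higher values than those with it. With length and GC content as an offset per library, 8 members were called, all among the 13, and 10.8% of all genes. Myl3, Tpm1, Tnnt1, Tnni3, Obsl1 and Tcap stayed lower, with Tcap at -0.60, and Myom2 and Xirp1 stayed higher at 1.02 and 1.07. Mylk3, Lmod3, Fhl2, Pdlim5 and Flnc did not pass. Other contrasts showed a length trend too. For KO against WT under vehicle, rho was 0.364 over the 14654 genes and 0.397 over the members. For the interaction it was -0.297 and -0.541, for DOX in KO 0.151 and 0.303, and for KO against WT under DOX 0.01 and -0.297. The part of RNA quality or library preparation in these length patterns was not tested.

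**Figure D3:**
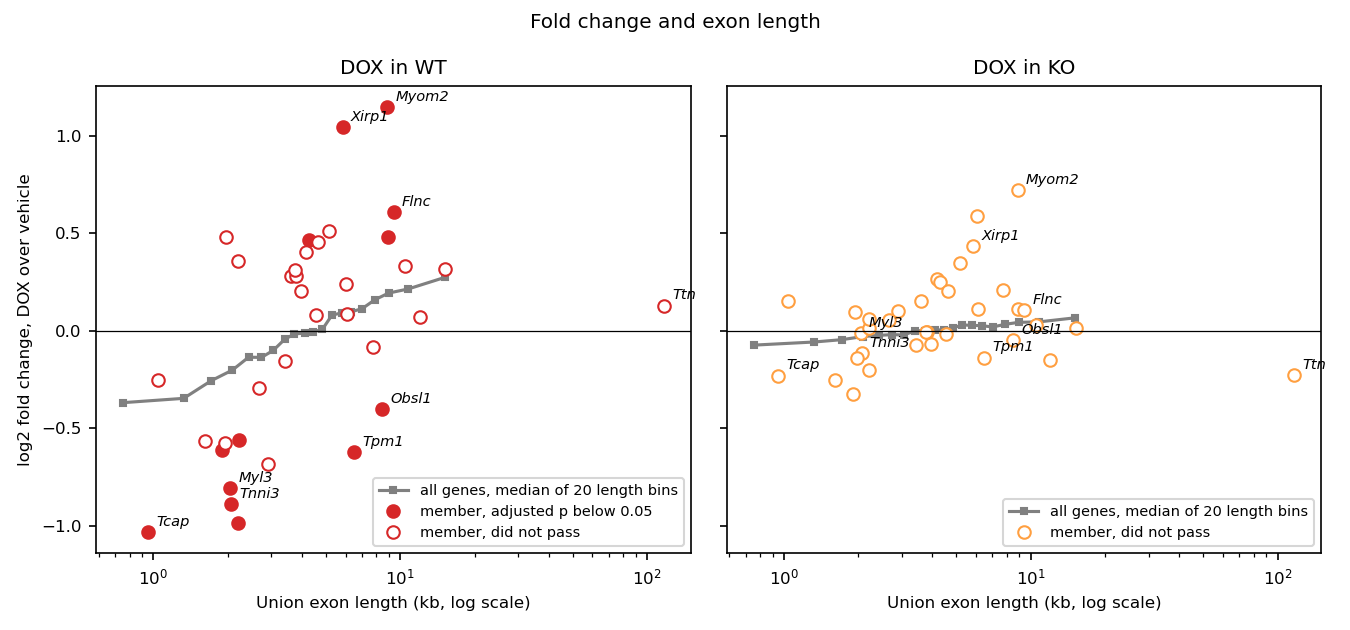
Log2 fold change of DOX over vehicle (vertical axis) against union exon length in kb (horizontal log axis) in WT and KO hearts, with 1 point per member and the median of all genes in 20 length bins in grey. In WT hearts the grey line climbs with length, Tcap lies lowest at the short end and Myom2 and Xirp1 lie highest.

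For members called in WT, 3 stretches of proximal promoter that no annotated exon covers and that hold a motif of a muscle regulator are shown, from RefSeq (GRCm38.p6), 5′ to 3′ on the gene's strand, with motifs in capitals. They lie at chr9:110763428-110763645 (plus strand, Myl3), chr8:85381042-85381291 (minus strand, Mylk3) and chr1:43163962-43164211 (minus strand, Fhl2). The motifs searched on both strands were the M-CAT element CATTCC bound by TEAD factors, the GATA element AGATAA, the CArG box of serum response factor and the MEF2 box.
Myl3: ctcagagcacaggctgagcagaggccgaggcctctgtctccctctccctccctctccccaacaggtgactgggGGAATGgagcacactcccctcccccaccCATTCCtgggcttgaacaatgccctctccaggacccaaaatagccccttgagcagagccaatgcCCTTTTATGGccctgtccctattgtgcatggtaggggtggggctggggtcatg
Mylk3: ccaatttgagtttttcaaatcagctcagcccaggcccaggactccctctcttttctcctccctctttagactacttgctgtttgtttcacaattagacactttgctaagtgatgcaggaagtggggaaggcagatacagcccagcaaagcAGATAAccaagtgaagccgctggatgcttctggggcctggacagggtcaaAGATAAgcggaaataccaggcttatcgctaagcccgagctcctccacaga
Fhl2: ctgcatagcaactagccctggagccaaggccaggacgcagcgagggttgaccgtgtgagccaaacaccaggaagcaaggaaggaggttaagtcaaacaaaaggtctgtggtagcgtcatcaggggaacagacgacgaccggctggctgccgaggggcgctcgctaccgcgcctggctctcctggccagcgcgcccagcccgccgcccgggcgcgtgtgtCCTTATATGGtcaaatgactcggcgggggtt
The Myl3 stretch holds M-CAT elements in both orientations and a CArG box, that of Mylk3 holds a pair of GATA elements, and that of Fhl2 holds a CArG box near the start. Of the members, 31 matched the promoter table, with 44 windows of 250 bases before to 50 after a start, some of them overlapping. An M-CAT element was in 25% of the members' windows and in 14.7% of all 32851 windows, a GATA element in 15.9% and 11.2%, a CArG box in 18.2% and 1.63%, and a MEF2 box in 18.2% and 3.19%. A match is a run of letters and not a binding site, and both a gene that fell (Myl3) and one that rose (Mylk3) carry such matches.

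In hearts labelled KO, DOX against vehicle gave 0 of 36 members called by edgeR, against 0.0136% of all genes. At an unadjusted p below 0.05 there were 2 members against 5.35% of all genes, and DESeq2 and limma-voom also called 0. The 2 members were Myom2, at 1227, 782 and 974 CPM under vehicle and 1351, 2232 and 1338 under DOX (log2 fold change 0.72, SE 0.25, adjusted p = 0.69), and Myom3, at 3.42, 3.74 and 3.67 CPM and then 5.24, 5.93 and 5.12 (0.59, SE 0.18, adjusted p = 0.571). In both, the DOX libraries lay above all the vehicle libraries. The lowest M-band value was that of Obsl1, at -0.046. The libraries did not overlap for 8 members against 16.3% of all genes. Tcap was at 1608, 1634 and 1236 CPM under vehicle and at 1199, 1306 and 1314 under DOX, which overlap (-0.23, SE 0.17). Outside the M-band, the highest and lowest values by compartment were Mybpc3 at 0.27 and Ttn at -0.225, Tnnt2 at 0.21 and Actc1 at -0.25, Pdlim3 at 0.35 and Fhl2 at -0.32, and Xirp1 at 0.43 and Xirp2 at -0.15, and none of these passed.

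Set side by side, the 2 genotypes share no library in these contrasts. The DOX effect had the same sign in both for 23 of 36 members, and for 12 of the 13 called in WT. Those 13 had a median absolute log2 fold change of 0.62 in WT, where passing selected them, and a median of 0.14 in the WT direction in KO. Shared signs were not counted over all genes, where both contrasts had a positive length trend (rho 0.352 and 0.151), so these counts are descriptions. The interaction, taken as the effect in KO minus the effect in WT, was called for 0 members by edgeR, against 0.21% of all genes. At an unadjusted p below 0.05 there were 8 members against 16% of all genes, DESeq2 called 1 and limma-voom called 6. The smallest adjusted p was 0.183 for Tcap, with a difference of 0.80 (SE 0.24). Myl3 differed by 0.80 (SE 0.26, adjusted p = 0.215), Tnni3 by 0.77 (SE 0.27, adjusted p = 0.232) and Tnnt1 by 1.00 (SE 0.38, adjusted p = 0.257). At the other end lay Lmod2 at -0.62 (SE 0.28), Xirp1 at -0.61 (SE 0.37), Flnc at -0.50 (SE 0.24), Myom2 at -0.42 (SE 0.35) and Ttn at -0.36 (SE 0.20). The remaining extremes were Obsl1 at 0.36 and Xirp2 at -0.22. By edgeR, a smaller DOX effect in KO was therefore shown for none of the 36 members. The standard errors of the interaction ran from 0.13 to 1.12. Tcap and Myl3, which each differed by 0.80, did not pass, so differences larger than the standard error could be missed in either direction. Without WT DOX mouse 21 the interaction was called for 4 members, Myl2, Myl3, Tcap and Xirp1.

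**Figure D4:**
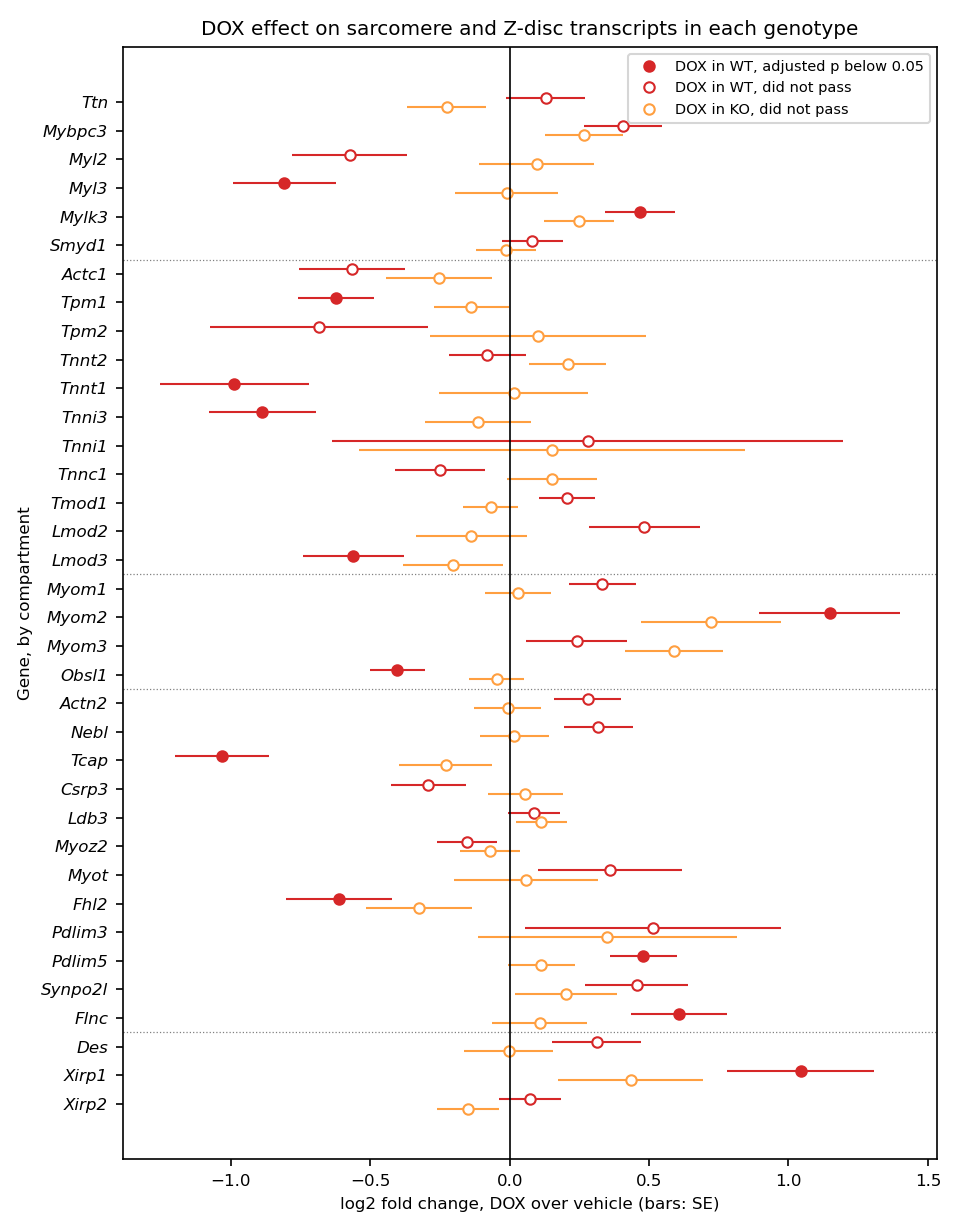
Log2 fold change of DOX over vehicle (horizontal axis, bars: SE) for each member (rows, by compartment) in WT (red) and KO (orange), filled where the adjusted p is below 0.05. The 13 filled points are all in WT, from Tcap at -1.03 to Myom2 at 1.15, and the KO point lies on the same side of 0 for 12 of these genes.

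Under vehicle, libraries labelled KO and WT differed in 0 of 36 members by edgeR, against 2.88% of all genes, although 17 members had an unadjusted p below 0.05 against 26% of all genes. DESeq2 called 10 and limma-voom 18. The nearest to the threshold was Csrp3, at 934, 959 and 925 CPM in KO vehicle against 1084, 1653 and 1371 in WT vehicle (log2 fold change -0.54, SE 0.14, adjusted p = 0.0509). Next was titin, at 3828, 4090.0 and 4399.9 CPM against 3366, 2167 and 2801 (0.56, SE 0.14, adjusted p = 0.0517). For both, every KO library lay outside the WT range, and the WT mice were far more spread than the KO mice. The libraries did not overlap for 20 members, 12 higher and 8 lower in KO, against 31.3% of all genes (16.5% higher and 14.8% lower). Tnni3 (-0.63, adjusted p = 0.0758) and Myl3 (-0.58, adjusted p = 0.0858) lay on the low side, with Obsl1 at -0.17 and Des at -0.20. Tnni1 at 1.87, Myom3 at 0.48, Nebl at 0.32 and Xirp2 at 0.30 were the highest of their compartments and not called. This contrast and that of DOX in WT share the 3 WT vehicle libraries, mouse 2 among them. Myl3 was at -0.81 in the one and -0.58 in the other, Tnni3 at -0.89 and -0.63, and Tcap at -1.03 and -0.05. Without WT vehicle mouse 1, 10 members were called, and without WT DOX mouse 21, which enters through the shared spread, 4 were.

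Under DOX, libraries labelled KO and WT also differed in 0 members by edgeR, against 0.42% of all genes. At an unadjusted p below 0.05 there were 9 members against 15.5%, and DESeq2 called 4 and limma-voom 5. The libraries did not overlap for 7 members, against 19.6% of all genes. The smallest adjusted p, 0.0657, belonged to Myom3, at 5.24, 5.93 and 5.12 CPM in KO DOX against 2.88, 2.77 and 3.48 in WT DOX (0.83, SE 0.18). Tcap was at 1199, 1306 and 1314 CPM against 924, 682 and 666 (0.75, SE 0.17, adjusted p = 0.0757), and Lmod3 at 91.2, 84.7 and 112 CPM against 77.0, 44.5 and 51.9 (0.73, SE 0.18, adjusted p = 0.0973). For these 3 genes no KO value reached down to the WT values. Xirp1 at -0.75 (adjusted p = 0.209), Myom2 at -0.51 (adjusted p = 0.346), Pdlim3 at -0.49, Lmod2 at -0.36 and Tnni1 at 1.75 were further extremes of their compartments, as were Myl3 at 0.22, Mylk3 at 0.07 and Xirp2 at 0.08. Without WT DOX mouse 21, 6 members were called, Lmod3, Myom3, Tcap, Actn2, Des and Xirp1, and Myom3 alone was called without WT vehicle mouse 1 or mouse 2.

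Minor isoforms of other muscle followed the atrial transcripts in part. Tnni1 was at 0.178, 0.173 and 0.198 CPM in WT vehicle and 0.252, 0.218 and 0.202 in WT DOX (log2 fold change 0.28, SE 0.91, adjusted p = 0.85). It reached 0.418, 1.40 and 0.213 CPM in KO vehicle and 1.69, 0.329 and 0.270 in KO DOX. The 2 high values were those of mice veh_3394 and 18, the 2 libraries with high atrial markers, and without them Tnni1 no longer passed the filter on low counts. Tpm2, the β-tropomyosin gene, was also highest in these 2 libraries, at 43.1 and 48.3 CPM against 15.6 to 35.0 elsewhere. It was at 22.4, 35.0 and 31.5 CPM in WT vehicle and 22.4, 17.4 and 15.6 in WT DOX (log2 fold change -0.68, SE 0.39, adjusted p = 0.224), and in a fit without the 2 libraries it was at -0.69 (adjusted p = 0.0399). Smooth muscle markers, 6 genes, summed to 196 to 558 CPM with none at 0, highest in KO DOX mouse 18. The part of atrial or smooth muscle tissue in these values was not tested. Tnnt1 showed another pattern, at 11.6, 25.2 and 13.3 CPM in WT vehicle, 10.6, 6.59 and 8.15 in WT DOX, 11.5, 9.77 and 12.9 in KO vehicle and 13.5, 9.95 and 11.1 in KO DOX. WT vehicle mouse 2 stood highest, and without it the log2 fold change of DOX in WT was -0.56. As a share of Tnnt1 plus Tnnt2 counts, Tnnt1 made up 0.162 ± 0.046% in WT vehicle, 0.0892 ± 0.018% in WT DOX, 0.149 ± 0.011% in KO vehicle and 0.132 ± 0.025% in KO DOX (SD, n = 3). The highest share in any library was 0.215%, in WT vehicle mouse 2.

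**Figure D5:**
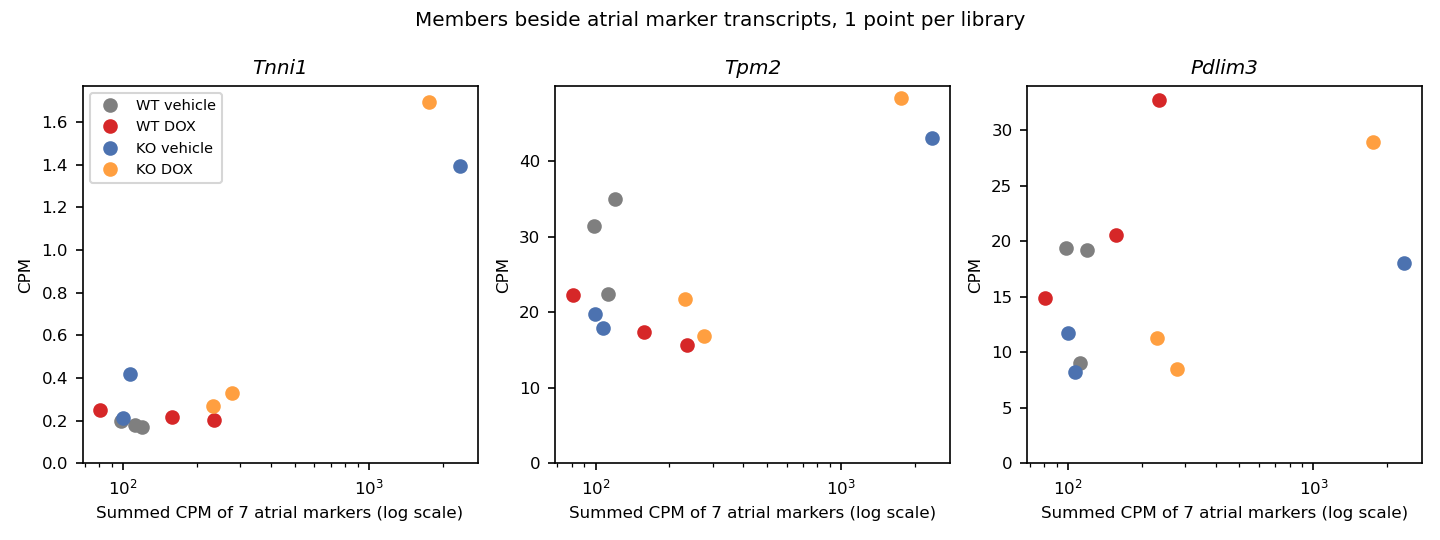
CPM of Tnni1, Tpm2 and Pdlim3 (vertical axes, from 0) against the summed CPM of 7 atrial markers (horizontal log axis), 1 point per library in its group colour. Tnni1 and Tpm2 are highest in the 2 libraries at 1754 and 2338 CPM of atrial markers, whereas the highest Pdlim3 value, 32.7 CPM, is in WT DOX mouse 24.

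Some pairs of members had similar profiles over the libraries, and others did not. The 630 pairs had a median Pearson's r of log2 CPM of -0.017 and ranged from -0.936 to 0.977. Over the 12 libraries, which share groups and length trends, the 3 highest values were 0.977 for Tpm1 and Tnni3, 0.968 for Myl3 and Tnni3 and 0.956 for Myl2 and Myl3. After removal of the group means they were 0.931, 0.914 and 0.961. Other abundant subunits were less alike over the 12 libraries, with 0.69 for Tpm1 and Tnnc1, 0.546 for Actc1 and Tnni3 and 0.208 for Actc1 and Tnnc1. With the group means removed, these 3 pairs were at 0.826, 0.462 and 0.536. Tnnt1 and Tnni3, neighbours on chromosome 7 (4504570 to 4516382 and 4518305 to 4524229), had an r of 0.904. With Tpm1 and Myl3, both on chromosome 9, Tnnt1 had nearly the same r, 0.893 and 0.89. Exons of Tnni3 overlap those of Dnaaf3 on the same strand over 4.17% of their length, and 32.6% of the exon bases of Tmod1 overlap Tstd2 on the opposite strand, so those counts are less certain.

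Other sarcomere-associated genes were read from lists chosen by function. Of 17 further Z-disc, M-band and costamere genes tested, 8 were called for DOX in WT, 5 higher and 3 lower. The 3 with the smallest p were the actin regulators Cap2 (0.49, adjusted p = 0.0118) and Cfl2 (0.50, adjusted p = 0.0173), which rose, and the tropomodulin Tmod4, which fell by 0.61 (adjusted p = 0.0235). Of 11 ubiquitin ligases and chaperones of the sarcomere, 3 rose and 1 fell, among them the small heat shock protein gene Hspb7 at 0.68 (adjusted p = 0.0226). Of 13 other isoforms of the members' gene families, the tropomyosin gene Tpm4 alone was called, and fell by 0.79 (adjusted p = 0.0418). In the heart, myocardin, GATA and MEF2 factors drive sarcomere genes. Of a list of 15 regulators, which holds these and other factors, 6 rose in WT under DOX and none fell. Myocd rose by 1.23 (SE 0.20, adjusted p = 0.0089), Gata6 by 0.63 (adjusted p = 0.0188) and Mef2a by 0.48 (adjusted p = 0.025). The rest of the 6 were Rbm20, Tbx20 and Tead1, which are not of these families. Gata4, Mef2c, Mef2d and Srf, also on the list, were not called. In this contrast 18.6% of all genes were called. These counts also leaned on single WT libraries, as counted after the data had been seen. The number of regulators called was 2 without WT vehicle mouse 2, 3 without WT vehicle mouse 3, 1 without WT DOX mouse 22 and 2 without WT DOX mouse 24. Myocd was among them each time, and without mouse 24 the other was Hand2, not one of the 6. With the length and GC offset, 3 regulators rose, Myocd, Gata6 and Rbm20, and Mbnl1 fell. Of the further Z-disc, M-band and costamere genes, 1, 2, 0 and 2 were called without the same 4 libraries, and 3 with the offset, all higher. Of the ligases and chaperones, 0, 1, 0 and 0 were called, and 3 with the offset, where Klhl40 joined Hspb7 and Klhl31. Leaving out 1 library labelled KO gave 6 to 8 further Z-disc genes, 2 or 3 ligases and chaperones and 4 to 6 regulators. Tpm4 was not called when any of the 4 WT libraries above was left out, nor with the offset, where Tpm3 was called lower. It was also not called without KO mouse veh_3393, veh_3394 or veh_3395, without KO DOX mouse 20, or with the title suffix as a covariate. Without both libraries high in atrial markers, Acta1 and Myl1 were called lower and Tpm4 was not called. A fit of the 2 WT groups alone called no gene of these lists.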

How the data were processed

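RNA of 12 mouse hearts was sequenced from stranded mRNA libraries. For each library the authors deposited a table of raw read counts by gene symbol. Per the submitters' processing notes, fastp 0.20.0, STAR 2.7.0f, Subread 1.6.4 and featureCounts were used. Genome build, gene annotation and strand option were not given in the sources used here. Groups came from the sample titles.

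The counts were used unchanged, with edgeR 4.0.16 in R 4.3.3. Genes were filtered with filterByExpr and scaled with TMM factors. All 12 libraries were fitted with 1 mean per group, and the quasi-likelihood F test was adjusted by Benjamini-Hochberg over 14757 genes at 0.05. The biological coefficient of variation was 17.5%. DESeq2 1.42.0 and limma 3.58.1 (voom) served as alternatives. With 3 mice against 3, no exact permutation test can go below 0.1. Replicates are separate mice, and no 2 libraries of the same group agreed within sampling noise. The fit was tested on simulated counts. Lengths and positions came from GENCODE M21 (GRCm38), matched by symbol, and promoters from RefSeq. Length and GC content were entered as an offset after the data had been seen.

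The members and lists were chosen with earlier results of these data known. Named are all members called, the highest and lowest member of each compartment in each comparison, and up to 3 called genes of smallest p per other list. Further called genes of these lists are named without values. Further members are given so that each of the 36 is accounted for, and Tpm2, Tnnt1, Tnni1 and Myom3 are given by library.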

Additional observations from a re-analysis of the deposited data

How the results depend on the processing

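No called member changed direction under any alternative, and the cause of the differences in counts was not tested. For DOX in WT hearts (13 members called), limma-voom gave 21, no filter on low counts 19, the DESeq2 Wald test 17, a fit of the 2 groups alone 0, the title suffix as a covariate 7 and the length and GC offset, added after seeing the data, 8. The count was 12 or 13 under DESeq2 size factors, no TMM scaling, mitochondrial genes removed, a minimum of 1 CPM in 3 libraries, and without both atrial-high libraries. Without WT vehicle mouse 2 and WT DOX mouse 21, an added setting, it was 17. Leaving out 1 library gave 1 to 20. For DOX in KO (0), no filter on low counts gave 1. For KO against WT under vehicle (0), no TMM scaling and removal of mitochondrial genes each gave 1, the CPM minimum 2, no filter 7, DESeq2 10 and limma-voom 18, and leaving out 1 library 0 to 10. For KO against WT under DOX (0), the suffix gave 2, DESeq2 4, limma-voom 5, no filter 9 and both mice left out 8, and leaving out 1 library 0 to 6. For the interaction (0), DESeq2 gave 1, no filter 5, limma-voom 6 and both mice left out 4, and leaving out 1 library 0 to 4. No paired analysis was possible because the mouse numbers differ between the groups. Depth limits Tnni1, with 4 to 43 reads per library, and Myom3.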

Other observations

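Under vehicle, where no member was called between libraries labelled KO and WT, a few genes of the same structures were. Of 17 further Z-disc, M-band and costamere genes, Palld (palladin, an actin scaffold) was higher in KO at 0.61 (adjusted p = 0.0146 by edgeR's quasi-likelihood test), Neb (nebulin) was higher at 1.02 (adjusted p = 0.0302) and Tmod4 was lower at -0.65 (adjusted p = 0.0455). The ubiquitin ligase gene Trim55 was higher at 0.54 (adjusted p = 0.0258), 1 of 11 genes of its list. Of 15 regulators, Tead1 was higher at 0.60 (adjusted p = 0.0302) and Mef2c at 0.44 (adjusted p = 0.0361). In each of these 6 genes, which passing had selected, the 3 KO vehicle libraries did not overlap the 3 WT vehicle libraries. Of all genes, 31.3% did not overlap and 2.88% were called in this contrast. No gene of these lists, nor of the list of 13 other isoforms of the members' gene families, was called by edgeR in the other contrasts below. These were DOX in KO (0.0136% of all genes called), KO against WT under DOX (0.42%) and the interaction (0.21%). The 6 calls under vehicle leaned on single libraries too, as counted after the data had been seen. Without WT vehicle mouse 2, Palld alone of the 6 was called, without WT vehicle mouse 3 none was, and without WT vehicle mouse 1 the lists gave 9 of 17, 2 of 11 and 6 of 15. Leaving out KO mouse veh_3393 or veh_3395, or both libraries high in atrial markers, gave 0 calls in these lists, and leaving out KO mouse veh_3394 kept Palld alone. Without KO DOX mouse 20, which enters through the shared spread, and with the length and GC offset, Palld and Trim55 were called, and without KO DOX mouse 18 Mef2c and Tmod4 were not.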
